A study of Mus musculus with 8 samples.

Results

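The genes of the synaptic vesicle and its release machinery were examined in RNA from the hippocampus of adult male mice exposed to bisphenol A (BPA, a plastic monomer that can bind hormone receptors) through their mothers. The members were taken by symbol from the deposited table of read counts, and all 48 were found among its 24527 rows. They comprise 10 genes for SNARE proteins, complexins and SNARE recycling, 12 for calcium sensors, 13 for vesicle membrane and vesicle-associated proteins, 10 for the active zone and 3 for vesicle endocytosis. They were matched by symbol alone. The name calcium sensors is a group label, here and for the further genes below. It does not mean that each protein of the group binds calcium. The control group was 4 wild-type C57BL/6J males whose mothers ate a low-phytoestrogen chow with 0 mg of BPA per kg, and the BPA group was 4 wild-type C57BL/6J males whose mothers ate that chow with 50 mg of BPA per kg. Feeding ran through gestation and lactation. From weaning on postnatal day 21 the pups of both groups ate the control chow, and the hippocampus was taken at 20 weeks of age. The comparison asks whether adult transcript levels of this machinery differ long after the end of early exposure.

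Chemical synapses release transmitter from vesicles that dock at the active zone, a protein scaffold on the presynaptic membrane. Fusion is driven by SNARE proteins of the vesicle (VAMPs, also called synaptobrevins) and of the plasma membrane (syntaxin and SNAP25), is regulated by complexins and is triggered when calcium binds synaptotagmin on the vesicle. NSF and its SNAP adaptors then take the SNARE complex apart, and dynamin, amphiphysin and synaptojanin help to retrieve and uncoat vesicle membrane. In the hippocampus these proteins serve the excitatory pathway from the dentate gyrus through CA3 to CA1 as well as local inhibitory neurons.

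Library totals ran from 27.1 to 40.8 M (mega) counts in controls and from 43.1 to 54.01 M in BPA mice, so every BPA library was deeper than every control library and depth and exposure cannot be told apart by group. The fixed markers of dentate granule cells, CA1 and CA3 were all detected. All 7 dentate markers had a log2 fold change (BPA minus control) above 0 and all 5 CA1 markers one below 0. Summed dentate marker levels ran from 309 to 458 CPM (counts divided by the TMM-scaled library total in M) in controls and from 413 to 443 CPM in BPA mice. Summed CA1 levels ran from 352 to 457 CPM in controls and from 367 to 399 CPM in BPA mice. Controls 1 and 4 had the lowest dentate scores and the highest CA1 scores of the 8 libraries. All 9 choroid plexus markers had one below 0, with sums of 64.95 to 1949 CPM in controls, highest in control 2, and 37.9 to 469 CPM in BPA mice. No marker of these lists was at 0, and the part of tissue makeup in the results below was not tested except where a value is given.

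To show the regulatory DNA of the genes that the results turn on, the sequence before the transcription start is given for Vamp1 and Nsf, which had the smallest unadjusted p-values of the SNARE group, and for Syn1, whose upstream DNA is a widely used neuronal promoter. Sequences are from RefSeq (build GRCm38.p6), written 5′ to 3′ on the strand of the gene, and end before the first annotated transcribed base. Capitals mark exact matches, on either strand, to the GC box (GGGCGG), the cAMP response element (TGACGTCA), the left part of the element bound by the neuronal repressor REST (TTCAGCACC) and a TATA box (TATAAA), motifs that do not overlap here.
Vamp1 (chr6:125215331-125215550, plus strand): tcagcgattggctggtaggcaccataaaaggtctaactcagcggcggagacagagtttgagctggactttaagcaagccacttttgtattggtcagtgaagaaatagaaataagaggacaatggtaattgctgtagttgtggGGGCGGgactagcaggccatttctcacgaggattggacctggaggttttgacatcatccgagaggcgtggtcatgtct
Nsf (chr11:103954057-103954306, minus strand): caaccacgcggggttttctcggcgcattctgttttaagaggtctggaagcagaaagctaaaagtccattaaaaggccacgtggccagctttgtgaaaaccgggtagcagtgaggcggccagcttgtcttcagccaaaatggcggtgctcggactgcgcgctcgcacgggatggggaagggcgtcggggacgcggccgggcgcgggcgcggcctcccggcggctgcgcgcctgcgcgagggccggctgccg
Syn1 (chrX:20921005-20921168, minus strand): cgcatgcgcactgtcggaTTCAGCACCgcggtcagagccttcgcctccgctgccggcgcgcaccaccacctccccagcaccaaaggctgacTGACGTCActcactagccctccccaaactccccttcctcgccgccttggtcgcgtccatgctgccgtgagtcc
The Vamp1 stretch held a GC box, the Nsf stretch held none of the 4 motifs in its 250 bases, and the Syn1 stretch held the REST element part and the cAMP response element. The RefSeq table had upstream windows of 250 bases for 36 of the 48 genes, 48 windows in all. A GC box was in 30 of these 48 windows (62.5%), against 54.8% of the windows of all genes tested and 32.7% of all windows in the table. Syn1 was the only member with the cAMP response element (2.48% of windows of tested genes) and the only one with the REST element part (0.340%). A TATA box was in 3 windows, of Rab3b and Sv2b (6.25%, against 6.82% of windows of tested genes). The median number of CpG dinucleotides was 14.5 in the members' windows and 14 in those of all tested genes. These matches describe letters and not bound sites.

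All 48 genes passed the filter on low counts and were tested, from Rims3, whose lowest library held 95 reads, to Snap25, whose lowest held 98062. Together they took 2.41 ± 0.0443% of all counts in controls and 2.40 ± 0.0303% in BPA mice (mean ± SD, n = 4 each; two-sided exact permutation p = 0.8857). In bulk tissue such as this, fewer cells of a type and less RNA per cell cannot be told apart. Levels scaled to exon length, as CPM per kb of exon and averaged over the 8 libraries, had a median of 42.9 among the members and 5.22 among all genes tested. Snap25, which encodes the plasma membrane SNARE SNAP25, stood highest at 1428 ± 117 CPM per kb (mean ± SD over 8 libraries). It was followed by Syp, for the abundant vesicle membrane protein synaptophysin, at 666 ± 34.0 CPM per kb, and by Syt1, for the calcium sensor of fast release, at 543 ± 22.3 CPM per kb. Cplx2 (427), Vamp2 (382) and Nsf (294 CPM per kb) came next, and these 6 genes held 61.2% of the summed length-scaled level of the 48.

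**Figure D1:**
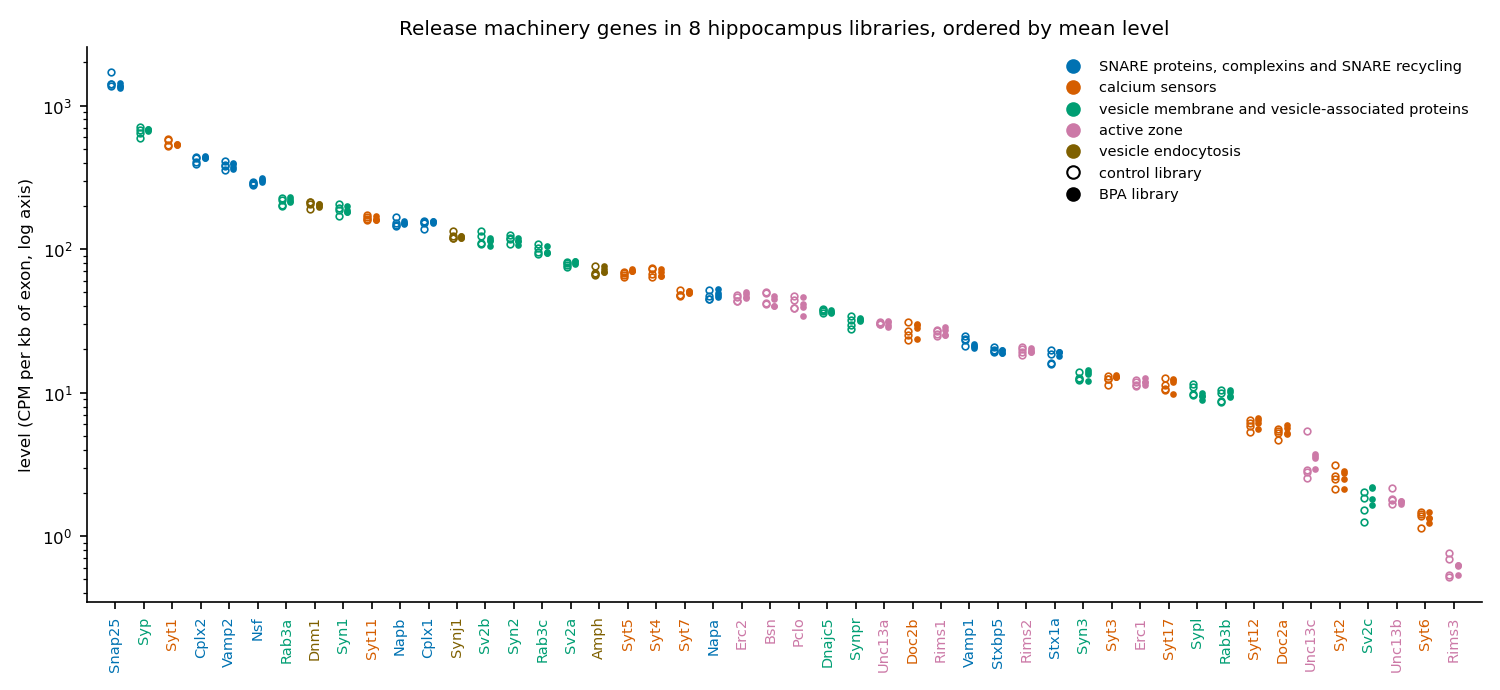
Length-scaled level (CPM per kb of exon, log axis) of 48 release machinery genes in each of 8 hippocampus libraries, ordered by mean level; open points are 4 control and filled points 4 BPA libraries, coloured by role. Levels span from Snap25 to Rims3, and the open and filled points of a gene lie close together beside the distance between genes.

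The active zone genes sat lower in this order than the SNARE genes. Their median length-scaled level was 22.97 CPM per kb, against 153 CPM per kb for the SNARE group, 79.6 for vesicle membrane and vesicle-associated genes, 123 for the 3 endocytosis genes and 19.95 for the calcium sensors. The lowest members were Sv2c (1.81 ± 0.329 CPM per kb), Unc13b (1.80 ± 0.152), Syt6 (1.35 ± 0.114) and Rims3 (0.616 ± 0.0852). Of the 47 pairs of neighbours in the order, 13 had ranges over the 8 libraries that did not overlap, among them Snap25 above Syp, Syp above Syt1 and Syt6 above Rims3. The other neighbours were not separated by their spread. The plot of length-scaled levels shows this order with the library values of each gene.

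None of the 48 genes passed the test between BPA and control mice. Their adjusted p-values ran from 0.955 to 0.998 (edgeR quasi-likelihood test, Benjamini-Hochberg over all genes tested), and over all 15434 genes tested the share called was 0%, with a lowest adjusted p of 0.518. At an unadjusted p under 0.05, which carries no correction for the number of genes, 2 members were higher in BPA mice (Nsf and Syt5) and 2 were lower (Vamp1 and Sypl). Over all genes tested the same shares were 2.22% higher and 2.30% lower. The 4 BPA values lay all above the 4 control values for 2 members, Nsf and Syt5 (1.37% of all genes), and all below them for 0 members (1.43% of all genes). The count at an unadjusted p under 0.05 dropped to 1 without control replicate 2 or without control replicate 4, and to 0 without BPA replicate 2 or without BPA replicate 4. Over all genes that count was 698 with all libraries, 675 and 649 without those controls, and 354 and 609 without those BPA mice. The count of members whose groups did not overlap was 5 without control replicate 3. Groups of fewer values separate more easily, and the share over all genes was not taken in that setting. DESeq2 and limma-voom also called 0 members at an adjusted p under 0.05. DESeq2 gave no adjusted p for some members, among them Syt3, Doc2a, Sv2c, Unc13b and Unc13c, so it could not call these. With the library total as a covariate none of Nsf, Syt5, Vamp1 and Sypl had an unadjusted p under 0.05, and the log2 fold change of Vamp1 was -0.016, that of Sypl -0.061 and that of Sv2c 0.032.

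The fold changes were small, and their intervals, which measure only the spread between these mice, were narrow for most members. In direction, 25 members were higher and 23 lower in BPA mice, where 50.0% of all genes were higher. The median log2 fold change, BPA minus control, was 0.0098 over the members and 4.9e-05 over all genes tested, and the members ran from -0.14 to 0.24. For 45 of the 48 genes (93.8%) the 95% interval stayed within 1.25-fold either way, against 68.0% of all genes tested and 90.2% of the 11313 tested genes whose level was at or above that of the lowest member. The exceptions were Sv2c, Unc13c and Rims3. For 12 members (25%) it stayed within 1.1-fold, against 13.4% of all genes tested and 18.3% of those at or above the level of the lowest member. Members of each role group went both ways: the counts higher and lower were 5 and 5 for SNARE genes, 7 and 5 for calcium sensors, 7 and 6 for vesicle genes, 5 and 5 for active zone genes and 1 and 2 for endocytosis genes.

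**Figure D2:**
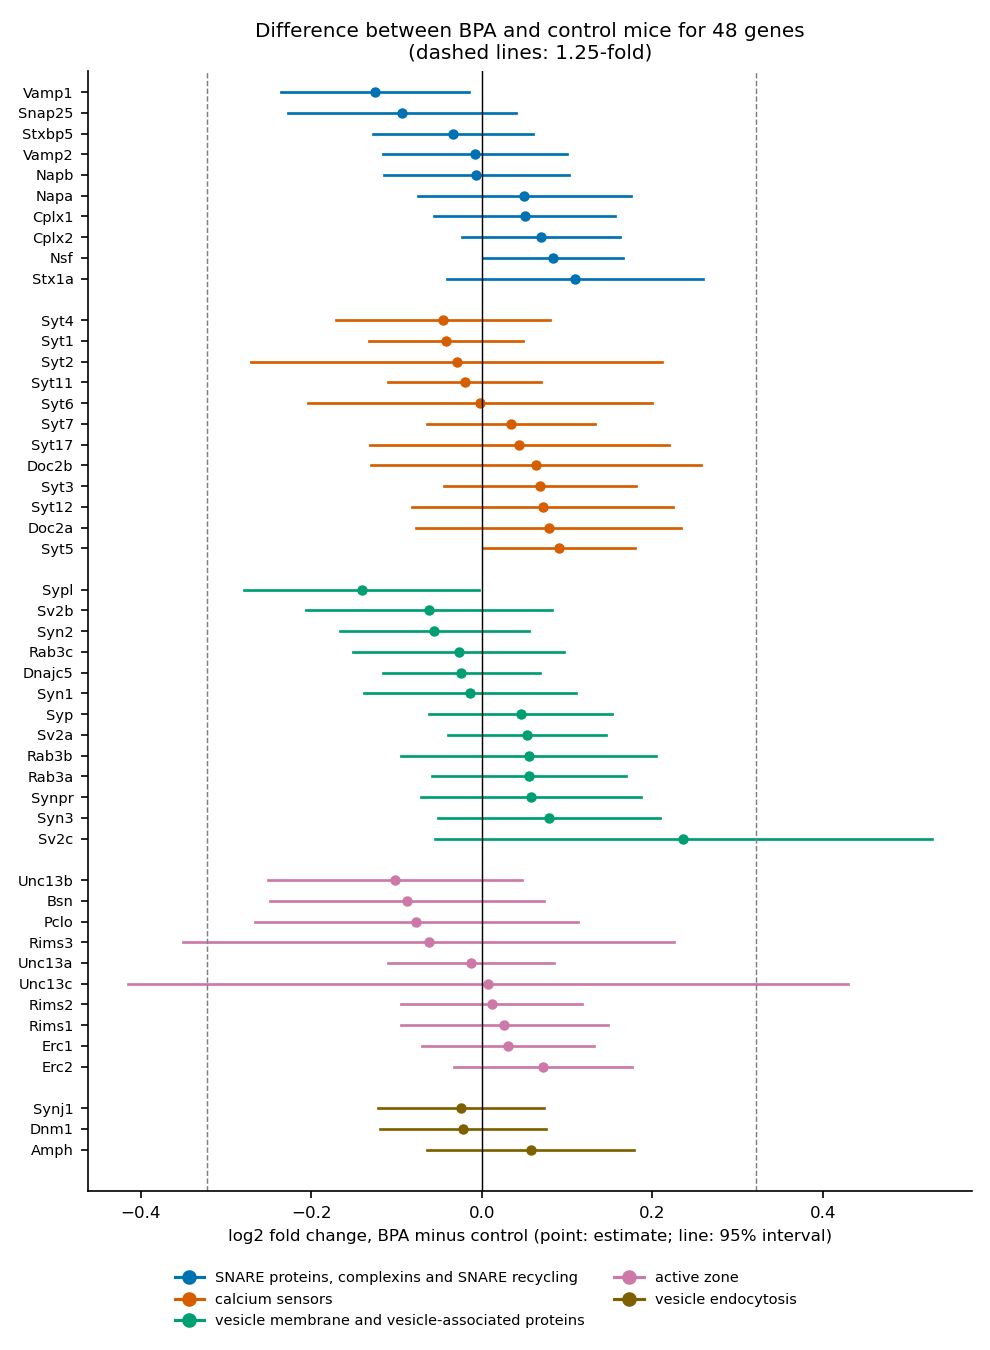
Log2 fold change, BPA minus control, of the 48 genes with its 95% interval, grouped and coloured by role; dashed lines mark 1.25-fold in each direction. The estimates lie on both sides of 0 in each role group, and only the intervals of Sv2c, Unc13c and Rims3 reach past a dashed line.

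Among the SNARE genes, Vamp1 and Nsf had the smallest p-values, in opposite directions. Vamp1 (chr6:125215551-125245964, mm10, plus strand) encodes the synaptobrevin that is scarcer than VAMP2 in forebrain. Vamp1 was at 94.6, 86.6, 96.1 and 102 CPM in controls 1 to 4 and at 87.3, 83.8, 89.9 and 86.3 CPM in BPA mice 1 to 4. Only control 2 lay within the range of the BPA mice, and the other 3 controls lay above it. The log2 fold change was -0.13 ± 0.051 (estimate ± SE), or 0.917-fold with 0.850 to 0.990 as 95% interval (edgeR unadjusted p = 0.0291, adjusted p = 0.955). Its partner in the same role, Vamp2, had a log2 fold change of -0.0083 ± 0.050.

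Nsf (chr11:103821782-103954056, minus strand) encodes the ATPase that separates SNARE complexes after fusion. Its levels were 1066, 1045, 1089 and 1106 CPM in controls 1 to 4 and 1133, 1174, 1109 and 1148 CPM in BPA mice 1 to 4. The groups did not overlap, although the lowest BPA value, in BPA 3, was just above the highest control value, in control 4. Its log2 fold change was 0.084 ± 0.038, or 1.06-fold with 1.00 to 1.12 as 95% interval (edgeR unadjusted p = 0.0454, adjusted p = 0.955). Napa and Napb, which encode the alpha and beta SNAP adaptors of NSF, had log2 fold changes of 0.050 ± 0.057 and -0.0062 ± 0.050.

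Cplx2, which encodes the main forebrain complexin, had the third smallest p of the SNARE group. It averaged 2052 ± 115 CPM over controls against 2153 ± 34.6 CPM over BPA mice (mean ± SD, n = 4 each), for a log2 fold change of 0.069 ± 0.043, with groups that overlapped. It was 0.039 without control replicate 1 and 0.16 with the library total as a covariate. The plasma membrane SNAREs went in opposite directions without passing the test: Snap25 averaged 3292 ± 351 CPM over controls against 3086 ± 93.0 CPM over BPA mice, and Stx1a, for syntaxin 1A, averaged 37.9 ± 4.07 CPM over controls against 40.9 ± 1.48 CPM over BPA mice. The Snap25 mean of controls rests in part on control 4, at 3813 CPM, since the other 3 controls lay between 3045.6 and 3166 CPM, inside the range of the BPA mice. Stxbp5, for the SNARE-binding inhibitor tomosyn, had a log2 fold change of -0.034 ± 0.043.

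Among the 12 calcium sensors, the transcript that differed most by its p was Syt5 (chr7:4539765-4547541, minus strand), a calcium-binding synaptotagmin. Syt5 was at 120.5, 111, 119.8 and 115 CPM in controls 1 to 4 and at 123, 128, 122 and 123 CPM in BPA mice 1 to 4. Every BPA value was above every control value, and control 2 was the lowest. For Syt5 the log2 fold change was 0.091 ± 0.041, or 1.06-fold with 1.00 to 1.13 as 95% interval (edgeR unadjusted p = 0.0469, adjusted p = 0.955). Syt3 (chr7:44384102-44400187), a synaptotagmin of high calcium affinity, was at 33.5, 30.2, 35.1 and 33.4 CPM in controls 1 to 4 and at 34.6, 35.5, 34.2 and 34.3 CPM in BPA mice 1 to 4. The BPA values formed a narrow band. Controls 1, 2 and 4 lay below all BPA mice, control 2 by the most, and control 3 lay among them. The Syt3 log2 fold change was 0.068 ± 0.052 (edgeR adjusted p = 0.955), and 0.026 without control replicate 2.

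Doc2a, for a soluble calcium sensor of spontaneous and asynchronous release, averaged 13.2 ± 0.947 CPM over controls against 14.0 ± 0.884 CPM over BPA mice, for a log2 fold change of 0.079 ± 0.071 that was 0.030 without control replicate 2 and 0.040 without BPA replicate 2. Its exons share 1103 bases with Ino80e on the opposite strand, so its reads are uncertain if strand was not used in counting. Syt1, whose protein triggers fast synchronous release, averaged 2660.2 ± 152 CPM over controls against 2584 ± 13.7 CPM over BPA mice, with a log2 fold change of -0.042 ± 0.041 and an interval of 0.913 to 1.03 for the fold. Syt7, for the high-affinity sensor of asynchronous release and facilitation, had a fold of 1.02 (0.957 to 1.10). Syt11 and Syt4, for synaptotagmins whose first calcium-binding domain lacks a conserved residue, had folds of 0.986 (0.927 to 1.05) and 0.969 (0.889 to 1.06). For these 4 genes the interval includes 1, and differences beyond its ends are not excluded. The interval treats the mice as independent, although their litters are not known. It also makes no allowance for library depth, which cannot be told apart from exposure by group.

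Among vesicle membrane and vesicle-associated genes, Sypl had the smallest p and Sv2c the largest fold change of all 48. Sypl (chr12:32953891-32979860, plus strand) encodes the broadly expressed synaptophysin relative pantophysin. Sypl was at 49.8, 58.9, 49.0 and 55.8 CPM in controls 1 to 4 and at 48.5, 45.3, 51.1 and 48.7 CPM in BPA mice 1 to 4. Controls 2 and 4 lay above all BPA mice, and controls 1 and 3 lay among them. For Sypl the log2 fold change was -0.14 ± 0.063, or 0.907-fold with 0.825 to 0.998 as 95% interval (edgeR unadjusted p = 0.0463, adjusted p = 0.955). Without control replicate 2 it was -0.088.

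Sv2c (chr13:95954594-96132577, minus strand) encodes a form of the vesicle glycoprotein SV2 best known from the basal ganglia. It was at 14.0, 17.1, 18.6 and 11.6 CPM in controls 1 to 4 and at 15.1, 20.4, 16.7 and 20.1 CPM in BPA mice 1 to 4. The lowest values were those of controls 4 and 1, the libraries with the lowest dentate marker scores, while controls 2 and 3 lay above BPA 1. For Sv2c the log2 fold change was 0.24 ± 0.13, with a fold interval of 0.963 to 1.44 (edgeR unadjusted p = 0.103, adjusted p = 0.955), and without control replicate 4 it was 0.13. Sv2b, a forebrain SV2 form, was highest in those same controls, at 728 and 788 CPM in controls 1 and 4 against 640.4 and 651 CPM in controls 2 and 3, and ran from 625 to 708 CPM in BPA mice. Whether the share of dentate and CA1 tissue has a part in either gene was not tested.

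**Figure D3:**
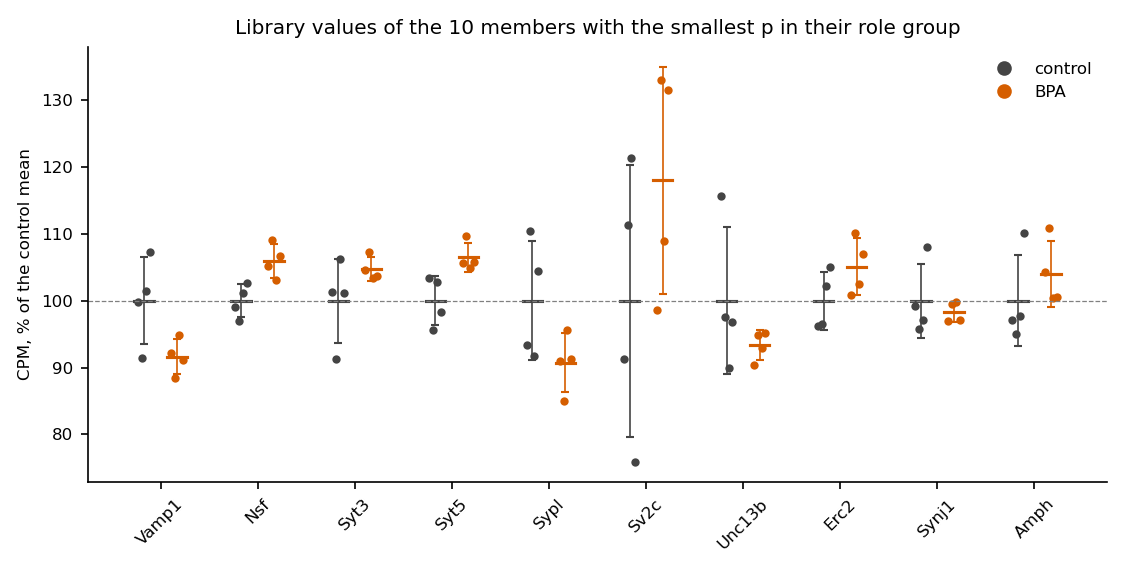
Level of 10 genes in each library as a percentage of that gene's control mean; points are libraries, bars are group means and whiskers are SD (n = 4 each). These are the 2 genes with the smallest p in each role group; the groups of Nsf and Syt5 do not overlap, and those of the other 8 genes do.

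Syn3, for the synapsin that is scarcest in adult brain, averaged 69.5 ± 4.05 CPM over controls against 73.4 ± 5.42 CPM over BPA mice (0.079 ± 0.060 as log2 fold change, 0.13 without BPA replicate 1 and 0.048 without BPA replicate 4). Its exons share 1733 bases with Timp3 on the opposite strand, and Timp3 itself ran from 121 to 143 CPM in controls and from 124 to 172 CPM in BPA mice. Syn1 and Syn2, for the synapsins that tether vesicles to actin, had log2 fold changes of -0.014 ± 0.057 and -0.056 ± 0.051. Syp averaged 1698 ± 124 CPM over controls against 1753 ± 26.7 CPM over BPA mice, which was 1.03-fold (0.958 to 1.11). The Rab3 GTPases, which mark vesicles for docking, had folds of 1.04 for Rab3a, 1.04 for Rab3b and 0.982 for Rab3c. Dnajc5, for the vesicle chaperone of SNAP25 called cysteine string protein, had a fold of 0.984 (0.923 to 1.05).

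Among active zone genes, no member had an unadjusted p under 0.05 with all libraries and no covariate. Unc13b, Pclo and Unc13c had one with the library total as a covariate, Bsn with the choroid plexus covariate, Unc13b without control replicate 3 and Unc13c without control replicate 1. Erc2 (chr14:27622428-28478537, plus strand) encodes a scaffold of the ELKS family. Erc2 was at 316, 317, 336 and 345 CPM in controls 1 to 4 and at 331, 362, 337 and 351 CPM in BPA mice 1 to 4, so controls 1 and 2 lay below all BPA mice and controls 3 and 4 among them. Its log2 fold change was 0.072 ± 0.048 (edgeR unadjusted p = 0.157, adjusted p = 0.955). Its exons share 106 bases with a predicted gene on the opposite strand. Unc13b (chr4:43058953-43264871, plus strand) encodes a Munc13 protein, the family that primes vesicles for fusion. Unc13b was at 37.8, 31.9, 29.4 and 31.6 CPM in controls 1 to 4 and at 29.5, 31.0, 30.4 and 31.1 CPM in BPA mice 1 to 4. Control 1 stood above all other libraries, and the other 3 controls spanned the range of the BPA mice. The log2 fold change of -0.10 ± 0.069 was -0.022 without control replicate 1.

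Unc13c, for the Munc13 form best known from the cerebellum, showed the same library apart. It was at 47.6, 25.3, 24.5 and 22.2 CPM in controls 1 to 4 and at 25.9, 30.8, 32.9 and 31.6 CPM in BPA mice 1 to 4. Control 1 was far above the rest, and the other 3 controls lay below the 4 BPA mice. The log2 fold change was 0.0077 ± 0.19 with all libraries (edgeR unadjusted p = 0.969, adjusted p = 0.997) and 0.33 without control replicate 1. That library stood apart in the same values, so leaving it out gives no independent test. Over the 18 other settings the log2 fold change ran from -0.53 to 0.33, and 8 of them reversed its direction. Unc13a, for the main forebrain Munc13, averaged 313 ± 5.75 CPM over controls against 310.5 ± 13.6 CPM over BPA mice.

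Bsn, for the giant scaffold protein bassoon, averaged 729 ± 74.5 CPM over controls against 686 ± 54.3 CPM over BPA mice, with a log2 fold change of -0.088 ± 0.074 and groups that overlapped. It ran from -0.044 without control replicate 3 to -0.13 without control replicate 2, and was -0.13 with the choroid plexus covariate and -0.23 with the library total as a covariate. Pclo, for the related scaffold piccolo, had a log2 fold change of -0.077 ± 0.087. Rims1 and Rims2 encode proteins that link Rab3, Munc13 and calcium channels. The RIM genes had folds of 1.02 (0.936 to 1.11) for Rims1, 1.01 (0.937 to 1.09) for Rims2 and 0.958 (0.784 to 1.17) for Rims3.

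The 3 endocytosis genes had the smallest median SE of the 5 role groups, 0.045 on the log2 scale. Amph (chr13:18948205-19150921), for amphiphysin, which recruits dynamin to vesicle necks, was at 227, 222, 228 and 257 CPM in controls 1 to 4 and at 244, 259, 235 and 235 CPM in BPA mice 1 to 4. Controls 1, 2 and 3 lay below all BPA mice, and control 4 lay among them. Its log2 fold change was 0.057 ± 0.056 (edgeR adjusted p = 0.957), 0.11 without control replicate 4, 0.034 without control replicate 2 and 0.025 without BPA replicate 2. Synj1 (chr16:90936092-91011308), for the lipid phosphatase synaptojanin 1 that uncoats vesicles, was at 889, 858, 869.9 and 968 CPM in controls 1 to 4 and at 869, 892, 894 and 871 CPM in BPA mice 1 to 4. Control 4 was above all others, and the log2 fold change of -0.024 ± 0.045 was 0.015 without control replicate 4. Dnm1, for the neuronal dynamin that cuts vesicles free, averaged 987 ± 50.4 CPM over controls against 972 ± 24.6 CPM over BPA mice, which was 0.985-fold (0.921 to 1.05).

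Within gene families a single member or a pair held most of the level in all 8 libraries. Shares are among the members only, so family genes outside the 48, such as Rims4 and Rab3d, do not enter them. On length-scaled levels, Vamp2 made up 94.5 ± 0.338% of the VAMP pair and Cplx2 73.6 ± 0.971% of the complexin pair (mean ± SD, n = 8). Syt1 held 58.5 ± 0.856% of the summed level of the 10 synaptotagmin members, Syt11 held 17.7 ± 0.494%, and Syt5 and Syt4 held 7.41% and 7.40%. Syn1 and Syn2 held 59.3% and 36.5% of the synapsins, Sv2b and Sv2a 58.7% and 40.3% of the SV2 genes, and Rab3a and Rab3c 66.7% and 30.3% of the Rab3 genes. Unc13a held 85.3% of the Munc13 genes, and the share of Unc13c ran from 7.27% to 14.5%, highest in control 1. Rims1 held 56.6%, Rims2 42.1% and Rims3 1.33% of the RIM genes among the members.

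**Figure D4:**
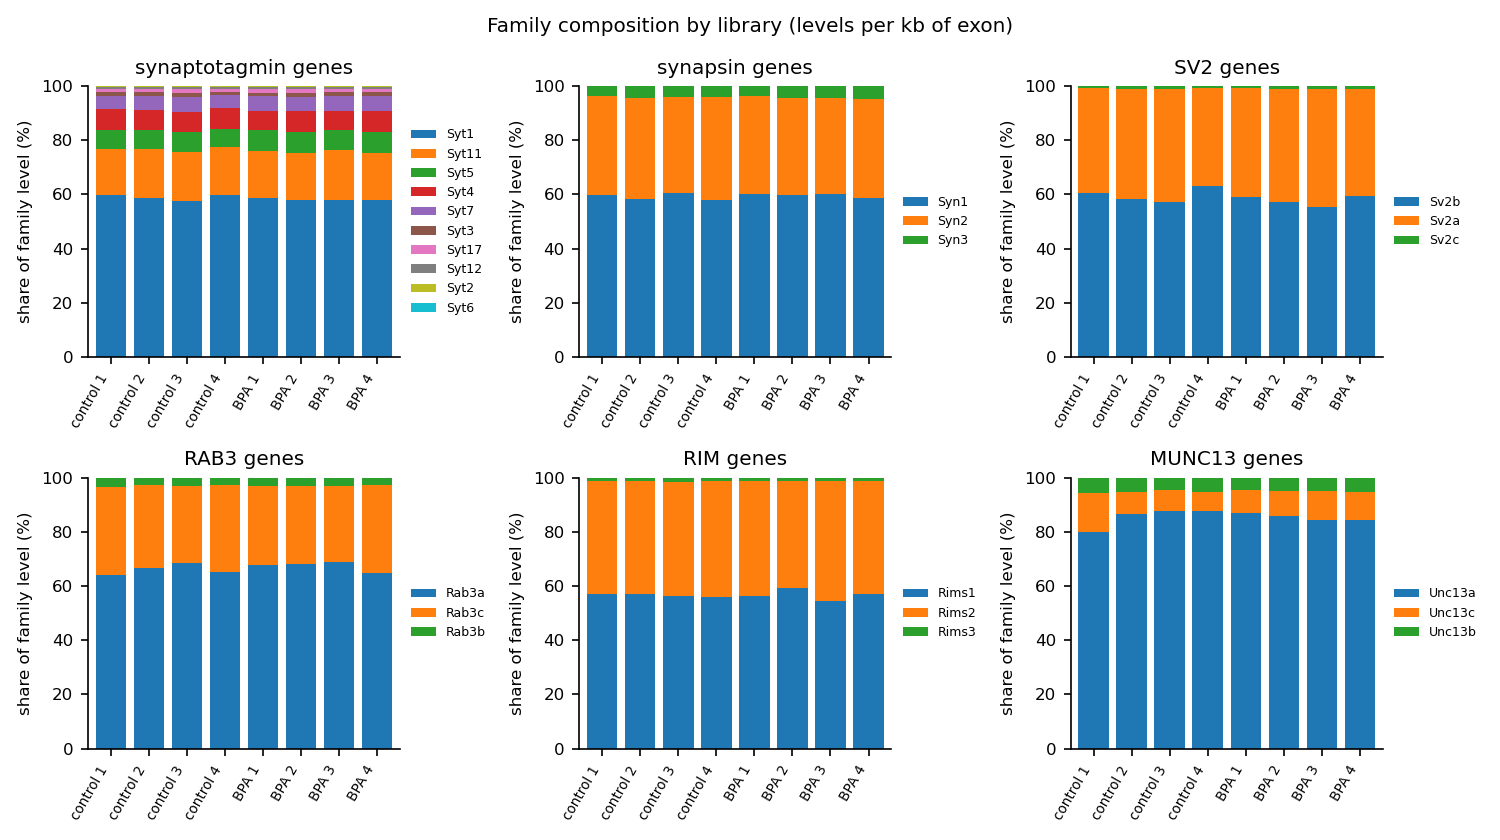
Share of the summed length-scaled level of 6 gene families held by each member, by library, in percent. The widest departure from a family's mean shares is control 1 among the MUNC13 genes, with Unc13a at 79.8% and Unc13c at 14.5%.

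Ratios of paralogues inside a library do not depend on how libraries are scaled. Of 12 such log2 ratios, 0 differed between groups at an adjusted p under 0.05 and 0 at an unadjusted p under 0.05 (two-sided exact permutation test, Benjamini-Hochberg over 12). With 4 mice against 4 this test cannot give a p below 0.02857, and a lone ratio could not reach an adjusted p below 0.343. The smallest p was for Vamp1 to Vamp2, at -3.51 ± 0.088 in controls and -3.63 ± 0.056 in BPA mice (mean ± SD of log2 ratios, n = 4 each; exact p = 0.0571, adjusted p = 0.686). The groups overlapped in all 12 ratios. Differences, BPA minus control, ran from -0.12 for that ratio to 0.20 for Sv2c to Sv2a, with 4 ratios higher and 8 lower.

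The further genes of the pathway also gave 0 genes past the adjusted threshold. Of 75 genes listed beside the members (other SNAREs and binding proteins, calcium sensors, vesicle proteins, transmitter transporters, active zone and endocytosis proteins), 74 were tested, 0 passed at an adjusted p under 0.05 and 0 had an unadjusted p under 0.05. The exception was the acetylcholine transporter gene Slc18a3, with 7 reads over all libraries. At an unadjusted p under 0.05 there were 4 members, and over all genes tested 2.22% higher and 2.30% lower. Of the 74, 38 were higher and 36 lower in BPA mice, where 50.0% of all genes were higher. In 1 of them, Syt14, all BPA values were below all control values (1.43% of all genes). The genes with the smallest p in the lists of calcium sensors, vesicle proteins, transporters, active zone and endocytosis proteins were Syt14 (-0.098 ± 0.046), Syngr3, for a synaptogyrin (-0.067 ± 0.052), Slc17a8, for the vesicular glutamate transporter VGLUT3 (-0.23 ± 0.12), Ppfia2, for a liprin scaffold (0.097 ± 0.052), and Pacsin1, for a membrane-bending endocytosis protein (0.080 ± 0.052), all as log2 fold change ± SE. Slc17a8 was highest in control 4 and stood at -0.11 without it. Without control replicate 1 Ppfia2 was at 0.058 and Syngr3 at -0.039, and without control replicate 2 Pacsin1 was at 0.051. Slc17a7, for the main hippocampal glutamate transporter of vesicles, averaged 553 ± 30.6 CPM over controls against 546 ± 33.7 CPM over BPA mice, and Slc32a1, its counterpart for GABA, averaged 31.3 ± 2.15 CPM over controls against 33.1 ± 1.40 CPM over BPA mice.

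Values of most members were more spread among the control mice than among the BPA mice. The coefficient of variation (SD over mean) was larger in controls for 42 of the 48 genes (87.5%), against 59.6% of all genes tested, and its median over the members was 6.74% in controls and 4.23% in BPA mice. It was 5.70% in controls and 0.529% in BPA mice for Syt1, 7.31% in controls and 1.52% in BPA mice for Syp and 10.7% in controls and 3.01% in BPA mice for Snap25. Unc13a went the other way, at 1.84% in controls and 4.38% in BPA mice. Control 2 was the lowest of the 8 libraries for 23 members, where it was the lowest for 13.5% of all genes. Control 4 was the highest for 11 members (17.6% of all genes), control 3 for 10 (12.1%) and BPA 2 for 9 (10.8%). Control 2 was also the library with the highest choroid plexus level, and control 4 the least deep at 27.1 M counts. Without control replicate 2 the count was 34 of 48 (70.8%, against 54.7% of all genes), and without control replicate 4 it was 35 (72.9%, against 52.1%). With all libraries thinned to the depth of control 4 it was 40 (83.3%, against 55.7%). Without control replicate 2 and BPA replicate 3 it was 32, a share of 66.7% that lay near the 61.9% of all genes. Genes that share libraries are not independent, so no test of this count was made, and it was looked at after the values were seen.

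**Figure D5:**
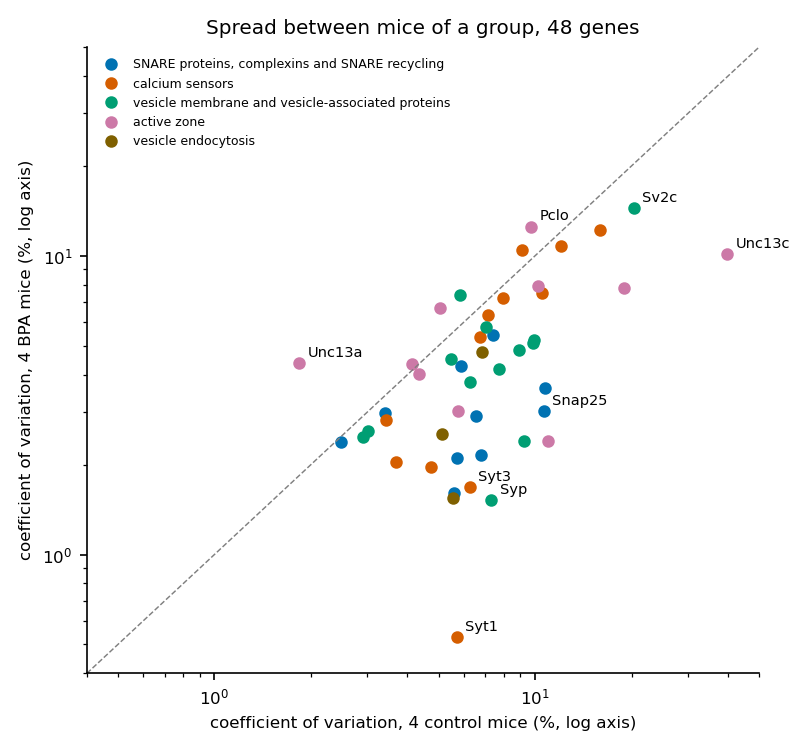
Coefficient of variation over 4 BPA mice against that over 4 control mice for the 48 genes (percent, log axes), coloured by role; the dashed line marks equal spread. The points of 42 genes lie below the line, and Unc13a and Pclo are among the 6 above it.

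Fold changes of the members were also set beside base composition and length. Over the 48 genes, the log2 fold change had a Pearson correlation of 0.35 (Spearman 0.37) with the GC content of the gene's longest transcript. Its Pearson correlation with log2 exon length was -0.35. Over 15074 tested genes with values these were 0.12 (Spearman 0.19) and -0.062. The genes share the same 8 libraries, so these are descriptions. Of the 23 members with a GC content of at least 50%, 15 were higher in BPA mice (4267 of 7236 over all genes), and of the 25 members below it, 10 were higher (3280 of 7838 over all genes). Among the libraries, the deviation of the members from their mean correlated with GC content most strongly in control 2 (-0.48), BPA 1 (0.39) and BPA 2 (0.38). With log2 exon length it correlated most strongly in BPA 1 (-0.57), control 2 (0.33) and control 1 (0.31). The part of base composition or length in the fold changes was not tested. The members lie on 19 chromosomes, and 18 of them share exon bases with a gene on the opposite strand, 13 by at least 100 bases: Syt4, Syt6, Syt7, Syt12, Doc2a, Doc2b, Syn3, Syp, Rab3b, Unc13a, Pclo, Erc1 and Erc2. Their values are uncertain if counting did not use strand.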

How the data were processed

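RNA was measured in 8 hippocampus libraries, 4 control and 4 BPA, made from polyadenylated RNA with a stranded kit (ScriptSeq v2). The values used are the raw, unnormalized read counts for each gene symbol that the authors deposited. Trimmomatic 0.32, STAR 2.3.0e, featureCounts 1.5.0 and DESeq2 with the mm10 build are named in the submitters' processing notes, and genes follow refGene per the file headers. Whether the counting used strand, and whether mice of a group came from separate litters, are not given in the sources used here. The p-values therefore measure the spread between these mice. Counts were scaled by TMM, filtered with filterByExpr and tested by quasi-likelihood in edgeR 4.0.16 (with limma 3.58.1, under R 4.3.3), 1 group term, two-sided, with Benjamini-Hochberg adjustment over all 15434 genes. The script was tested on simulated data. Standard errors come from the test statistic. Replicates of a group differed beyond counting noise in each of 12 pairs (chi-square over its degrees of freedom, 10.02 to 24.8). Exon length, GC content and overlaps are from the GENCODE M21 annotation of mm10, and 97.7% of tested genes had values. Symbols were matched to RefSeq for promoters.

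The members and lists were chosen with earlier results of these data known. Fold changes are given for the 3 genes with the smallest p in each role group, library values for 2, and the gene with the smallest p in each list of further genes; values, folds or fold changes of other members and genes, among them Unc13c, Timp3, Slc17a7, Slc32a1 and Tshz2, were added after their values were seen. A result that the rule selects is not reported here; its gene stays in all tests and counts. Alternatives were DESeq2 1.42.0, limma-voom, RLE and upper quartile scaling, no filter, covariates for library total or choroid plexus score, thinned libraries, a replicate block, and leaving out libraries.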

Additional observations from a re-analysis of the deposited data

Results flagged for a closer look

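In 122 groups of 4 mice (the 48 members, the 12 paralogue ratios and the members' share of counts, in each group), 6 held a library whose gap to its nearest neighbour took up more of the group's range than the Dixon criterion allows. Chance alone gives about 1 in 20. Control 4 was high for Snap25, at 3813 CPM against 3045.6 to 3166 CPM in the other controls, and control 1 was high for Unc13c, at 47.6 CPM against 22.2 to 25.3 CPM. BPA 3 was low for Stx1a, at 38.7 CPM against 41.4 to 41.8 CPM in the other BPA mice, and low for Rims3, at 3.60 CPM against 4.17 to 4.27 CPM. It was high for Syt11, at 877 CPM against 826 to 834 CPM. BPA 4 was high for Rab3c, at 941 CPM against 834 to 852 CPM.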

How the results depend on the processing

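Counts of 0 members and 0 further pathway genes past the adjusted threshold held in all 18 other settings, including DESeq2, which called 6 genes over the whole table. DESeq2 gave no adjusted p for some of these genes, among them Sv2c, Unc13c, Syt14, Syngr3 and Slc17a8, and could not call them. The members' median log2 fold change ran from -0.010 to 0.039, and 22 to 33 members were higher. Of 22 fold changes followed, 19 kept their direction in every setting, as did 8 of 12 ratios. Members with an unadjusted p under 0.05 were 4 as reported, where 698 of all genes had one. They numbered 2 with limma-voom (704 over all genes), RLE scaling (693), no filter (897) or the choroid plexus covariate (674). They numbered 2 with both libraries with most choroid plexus left out (896 over all genes) and 1 with the replicate block (498). With single libraries left out they numbered 0 to 5, and over all genes 354 to 1167, each highest without control replicate 3. With the library total as a covariate there were 4 (Unc13b, Pclo, Unc13c and Cplx2), against 523 over all genes. None of these was among the 4 reported. Members whose groups did not overlap numbered 6 with both libraries left out and 2 to 5 with single ones left out. Groups of fewer values separate more easily, and shares over all genes were not taken in these settings. With the library total as covariate, Synj1 was at 0.037, Slc17a8 at 0.039 and Unc13c at -0.53, and depth and exposure cannot be told apart by group. Unc13c was at -0.017 with the choroid plexus covariate, at -0.12 with both libraries left out and from -0.11 to 0.33 with single ones left out. Synj1 ran from -0.044 to 0.015 with single libraries left out, and the ratio differences from -0.047 to 0.030 for Cplx1 to Cplx2, -0.093 to 0.11 for Syt2 to Syt1, -0.058 to 0.040 for Rims2 to Rims1 and -0.020 to 0.055 for Pclo to Bsn, which was -0.013 with both libraries left out. The cause of these changes was not tested. The labels do not say whether replicate numbers pair the mice. Same-numbered controls and BPA mice correlated at -0.14, -0.45, -0.36 and 0.042 over 10939 genes, which cannot show whether they share a litter or batch. With the replicate block 0 members were called.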

Other observations

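Unc13c was chosen for a look at its library pattern after its values were seen. Slc17a6, which encodes the vesicular glutamate transporter VGLUT2 and is low in principal cells of the hippocampus, was at 24.4, 15.4, 11.4 and 9.30 CPM in controls 1 to 4 and at 11.8, 12.5, 20.9 and 18.2 CPM in BPA mice 1 to 4. Tshz2, a transcription factor gene, was at 88.97, 48.4, 41.2 and 26.2 CPM in controls 1 to 4 and at 42.3, 39.9, 73.5 and 59.4 CPM in BPA mice 1 to 4. In controls, Unc13c, Slc17a6 and Tshz2 were each highest in control 1 and lowest in control 4, and in BPA mice each was highest in BPA 3.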
